A study of Homo sapiens with 8 samples.

Results

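H820 is an established human lung adenocarcinoma line, and its treated spheres were compared here with its untreated spheres, 1 library a side. Of the 60106 genes in the files, 14883 had 50 or more counts in at least 1 of the 2 H820 libraries and make up the comparison. The 2 libraries belong to 8 from 4 non-small cell lung cancer lines, of which H23 and H1975 are also labelled adenocarcinoma and EBC1 squamous cell carcinoma. Every line was grown as pneumospheres, which are floating spheres formed where cells cannot attach, in DMEM-F12 without serum, to which B-27 and the growth factors FGF and EGF were added. PD-L1s, a synthetic and soluble PD-L1, was then given to the treated spheres for 15 min at 25 µg/ml, with 0% serum. The labels do not say whether the untreated spheres had the same change of medium, or whether both libraries of a line came from 1 culture. An effect of PD-L1s and one of handling or of a separate culture therefore cannot be told apart, and with 1 library a side no value within H820 has a replicate check. In bulk RNA a shift in the number of cells of a kind and a shift in RNA per cell cannot be told apart either.

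Cells that divide switch on genes in 2 waves, first those that build the replication machinery and histones and then those that build the mitotic spindle and split the cell. Low oxygen stabilises HIF transcription factors, which switch on genes of sugar uptake, glycolysis and vessel growth, and the related aryl hydrocarbon receptor, once bound by a ligand, switches on CYP1 enzymes. A growth signal first acts on immediate early genes such as FOS and EGR1, whose RNA is made within minutes and decays quickly, while most messenger RNAs last for hours.

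The treated H820 library was 4.28 times as deep as the untreated one (23783679 against 5559870 counts), and EBC1 had a like gap of 4.67 times, while the ratio was 0.766 in H23 and 0.936 in H1975. The share of counts from the mitochondrial genome was 4.07% in untreated and 2.47% in treated H820, and 1.65% and 0.972% in EBC1. Epithelial markers were plentiful in both H820 libraries (summed level 3395 and 5131 CPM, the count over the library's scaled total in units of 1e+06). NKX2-1, a lung lineage factor, had 35.6 and 54.0 CPM, and NAPSA 2.37 and 3.76. SLC34A2 differed most among the 8 alveolar markers with enough counts, with 6.10 and 27.6 CPM. Of all 14 alveolar markers, 5 were at 0 in the untreated and 2 in the treated library, and the surfactant genes SFTPA1 and SFTPC had 0 counts in both. PTPRC, COL3A1 and EMCN, markers of blood, stromal and vessel cells, were also at 0 in both, but other members of their lists were present. CD68 had 65.9 and 131 CPM, COL1A1 57.2 and 53.1, and KDR 7.28 and 6.74. In the untreated library 7 of 14 immune, 6 of 10 fibroblast and 6 of 9 matched endothelial markers were at 0. In the treated library 6, 4 and 2 were. Of 12 red cell markers, 6 were at 0 in the untreated and 8 in the treated library, and their sum was 22.2 and 0.883 CPM, most of it from HBA2 and HBA1, near-identical globin genes. The part of depth, mitochondrial share and red cell RNA in the results below was not tested.

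Each gene was described by the log2 ratio of treated to untreated CPM, and the same ratio was formed in the other lines. A prior count of 5, scaled to each library's size, was added to steady low values. After PD-L1s, 629 genes of H820 (4.23%) had more than 2-fold more and 130 (0.873%) more than 2-fold less. EBC1 had 186 such higher genes (1.33%) and 16 lower (0.115%) among 13967 with enough counts. H23 had 22 (0.142%) and 14 (0.0906%) among 15447, and H1975 had 20 (0.133%) and 4 (0.0266%) among 15049. Over all genes the median log2 ratio of H820 was 0.14, close to that of EBC1 at 0.13, and H23 and H1975 both had -0.01. Scaling by library size alone moved the H820 median to -0.09 and the counts to 387 higher and 324 lower, so the balance of higher and lower genes depends on the scaling. The minimum count matters too: with 50 counts required in the untreated library, 268 were higher and 80 lower. Ratios of gene lists below are to be read against the median of all H820 genes.

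The only test open to H820 was of its difference in response, treated minus untreated, from the mean of the other 3 lines (edgeR quasi-likelihood test, Benjamini-Hochberg adjusted over 24185 genes). There the H820 value is a single pair and the spread comes from the other 3 pairs. The difference was higher in H820 for 635 genes (2.63%) and lower for 89 (0.368%), of which 368 and 46 were also over 2-fold within H820. A gene is said below to have passed when its adjusted p was under 0.05. With library size alone the calls were 488 higher and 575 lower, so higher genes made up 45.9% of calls in place of 87.7%. Leaving out a line moved the counts as well, to 287 higher without H23, 303 higher without H1975, and 1552 higher and 536 lower without EBC1, whose 2 libraries have the depth gap nearest to that of H820.

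**Figure D1:**
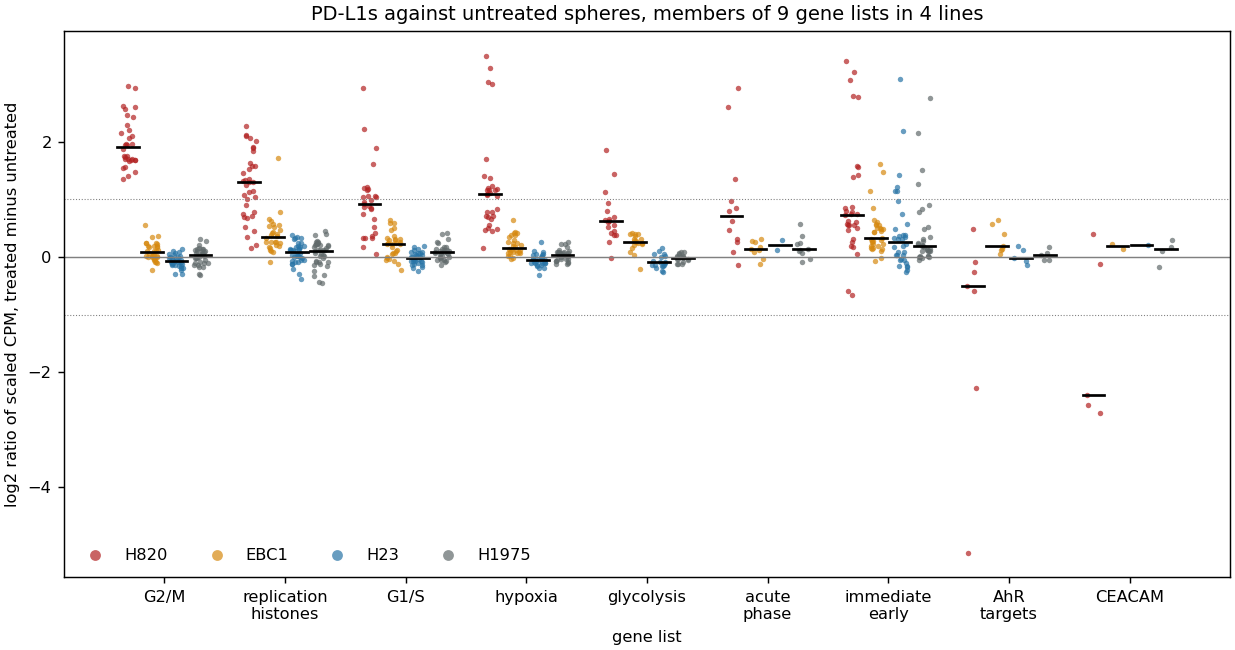
Log2 ratio of treated to untreated scaled CPM for members of 9 gene lists, 1 point a gene with 50 or more counts in a library of that line, coloured by line; black bars are medians and dotted lines mark 2-fold. The G2/M points of H820 lie between 1.35 and 2.97, while no G2/M point of another line passes 2-fold in either direction.

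Of all the lists, the genes of mitosis had the highest share that passed. All 32 genes of the G2/M list were over 2-fold higher in treated H820 (range 1.35 to 2.97, median 1.91 on the log2 scale), and all 32 passed the test of the difference, also without any one of the other lines, against 2.63% of all genes tested. The list's median was 0.09 in EBC1, -0.08 in H23 and 0.04 in H1975. Summed over the list, H820 went from 512 to 2247 CPM, while the other 6 libraries lay between 1602 and 3519 CPM. The untreated H820 library was the low one: 31 of the 32 genes had fewer CPM there than in any library of the other lines, and 7 of 32 did so in the treated library. Over all 14883 genes these shares were 22.0% and 16.7%, and other lists had the trait too in the untreated library, with 17 of 19 cholesterol genes and 23 of 30 ribosomal protein genes.

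MKI67, which codes for the Ki-67 protein that marks dividing cells (ENSG00000148773.13_3, chromosome 10 from 129894923 to 129924649 on the minus strand, GRCh37), had 125 counts in untreated and 3610 in treated H820, or 21.2 and 168 CPM. It had 305 and 295 CPM in EBC1, 330 and 298 in H23, and 189 and 205 in H1975. Untreated H820 was thus far below the 7 other libraries, which all lay within a factor of 2 of each other. The log2 ratio in H820 was 2.97 (95% counting interval 2.73 to 3.25), and the difference from the other lines was 3.01 ± 0.212 (SE, edgeR adjusted p = 6.38e-11). TOP2A, the topoisomerase that untangles chromosomes, went from 48.9 to 300 CPM in H820 (ratio 2.61, edgeR adjusted p = 2.55e-10) and lay between 177 and 433 CPM in the other lines. ANLN, an actin-binding protein of the cleavage furrow, went from 68.6 to 422 CPM (2.61), KIF20A, a kinesin of the late spindle, from 1.86 to 16.2 CPM (2.94), and UBE2C, a ubiquitin carrier that lets cells leave mitosis, from 5.25 to 32.6 CPM (2.57). The master regulators of the phase were among them, with ratios of 1.96 for the transcription factor FOXM1 and the kinase CDK1, 1.68 for cyclin CCNB1 and 1.54 for the kinase PLK1.

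Promoters of many mitotic genes hold TTTGAA, the core of the cell cycle homology region that the DREAM complex binds. RefSeq entries (GRCh38.p14) were found for 25 of the 32 genes, and 15 of these (60%) had TTTGAA on either strand in the 250 bases before the start, against 11.9% of 9683 protein-coding genes with enough counts in H820 and 16.1% of all 27305 genes with an entry. The list was made of known mitotic genes, so its share describes the list and not the H820 ratios. Among the 384 protein-coding genes over 2-fold higher in H820 with an entry, the share was 22.7%. The 250 bases before the start are shown for a pair of genes with 2 matches each, chr10:128126424-128126673 on the minus strand for MKI67 and chr7:36389612-36389861 on the plus strand for ANLN. Capitals mark TTTGAA or its reverse complement, which stand 47 and 29 bases before the MKI67 start of the RefSeq table and 26 and 20 before that of ANLN. That MKI67 start could not be matched to a transcript's first bases, so its 2 distances are uncertain.
MKI67: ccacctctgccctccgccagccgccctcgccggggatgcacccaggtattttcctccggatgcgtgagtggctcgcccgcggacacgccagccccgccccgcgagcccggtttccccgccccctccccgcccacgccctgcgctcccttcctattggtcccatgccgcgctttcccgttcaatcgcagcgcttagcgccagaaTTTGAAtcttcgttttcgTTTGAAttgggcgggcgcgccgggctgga
ANLN: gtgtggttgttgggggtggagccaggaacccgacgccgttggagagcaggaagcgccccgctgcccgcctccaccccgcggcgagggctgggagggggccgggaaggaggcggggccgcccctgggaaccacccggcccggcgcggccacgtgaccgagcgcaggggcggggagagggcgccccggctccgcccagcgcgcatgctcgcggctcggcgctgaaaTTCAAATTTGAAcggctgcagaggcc

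The earlier wave differed less. Of 30 genes of G1/S and DNA replication, 29 had enough counts, 12 were over 2-fold higher in H820 and none over 2-fold lower, with a median log2 ratio of 0.91, and 10 of 30 passed (4 without H23, 6 without H1975 and 18 without EBC1). The list's median was 0.23 in EBC1, -0.02 in H23 and 0.08 in H1975. RRM2, the inducible subunit of the enzyme that makes deoxynucleotides, went from 31 to 909 counts (5.25 to 42.2 CPM, ratio 2.94, edgeR adjusted p = 1.77e-08), although a gene model that overlaps it, AC104794.5, shares its reads. TYMS, thymidylate synthase, went from 3.22 to 12.7 CPM (1.90), and the replication helicase subunits MCM2 and MCM4 had ratios of 1.17 and 1.05. Other members moved little: PCNA, the sliding clamp, had a ratio of 0.52, cyclin CCNE1 0.18 and the polymerase subunit POLA1 0.05, and none of these passed. Even after treatment, 18 of the 29 genes had fewer CPM in H820 than in any library of the other lines, against 26 of 29 before, beside 16.7% and 22.0% of all genes.

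Histone genes that are read in S phase were also higher. Of 39 on the list, 35 had enough counts, 23 were over 2-fold higher in H820 and none over 2-fold lower (median 1.29), and 22 of 39 passed (14 without H23). The median was 0.34 in EBC1, 0.08 in H23 and 0.11 in H1975. HIST1H1B, a linker histone, went from 12.0 to 58.9 CPM (ratio 2.27, edgeR adjusted p = 4.28e-07), and HIST1H1D from 69 to 1077 counts (2.07). Core histone genes are near-identical copies, so the split of counts among them is uncertain.

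**Figure D2:**
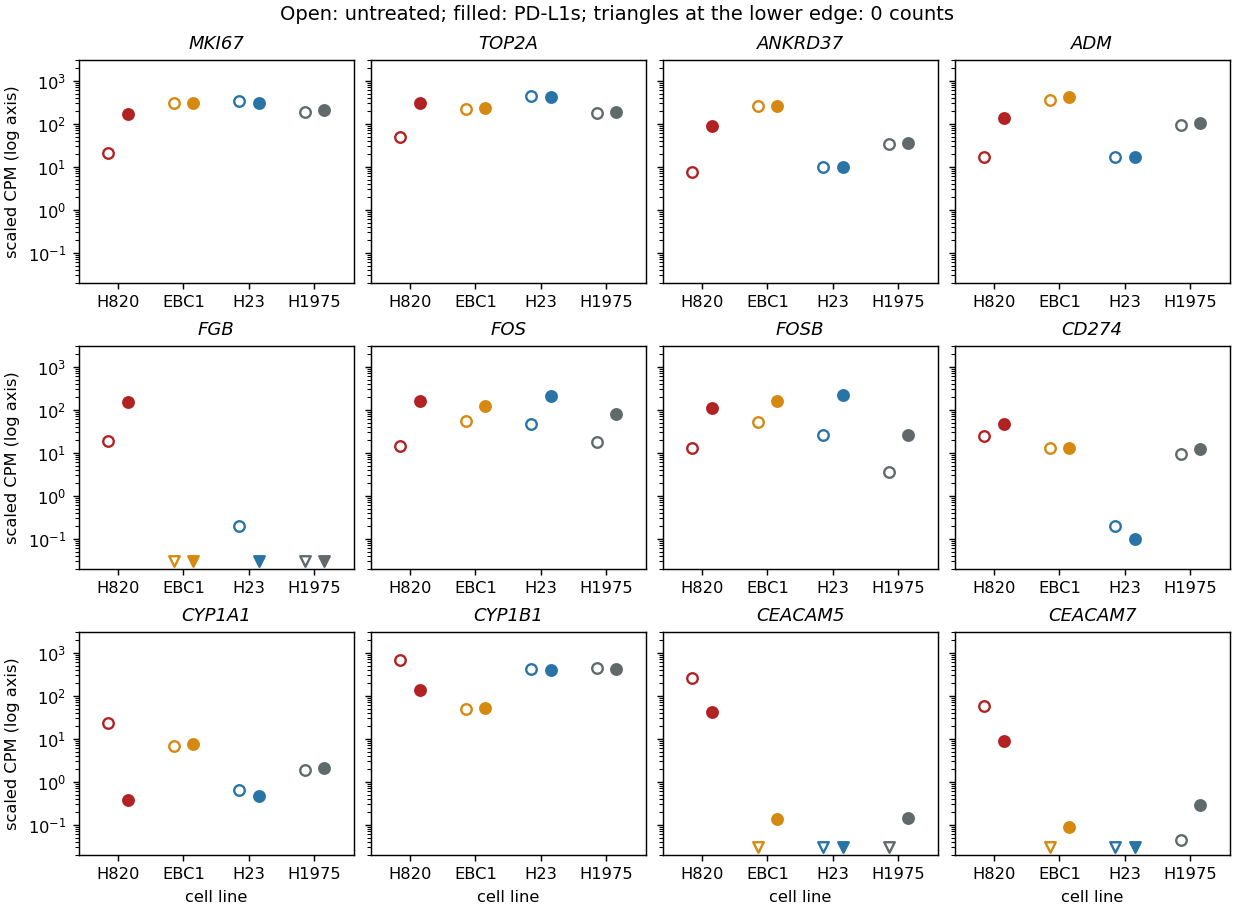
Scaled CPM on a log axis for 12 genes in each of the 8 libraries, open points untreated and filled points PD-L1s, with triangles at the lower edge for 0 counts. Untreated H820 lies lowest of the 8 for MKI67, TOP2A, ANKRD37 and ADM, and FOS and FOSB are higher after PD-L1s in each of the 4 lines.

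Genes of the response to low oxygen made up the second large group. Of 32, 30 had enough counts, 17 were over 2-fold higher in H820 and none over 2-fold lower, and all 30 ratios were above 0 (median 1.09). The difference from the other lines passed for 20 of 32 genes (13 without H1975), beside 2.63% of all genes tested. The list's median was 0.15 in EBC1, -0.06 in H23 and 0.04 in H1975. Summed over the list, H820 went from 7866 to 17407 CPM, while the other 6 libraries lay between 2242 and 15476 CPM. In untreated H820, 7 of 30 genes were below every library of the other lines, near the 22.0% of all genes. In treated H820, 10 of 30 were above every such library, beside 27.7% of all genes. ANKRD37, a HIF target whose protein carries ankyrin repeats (ENSG00000186352.8_2, chromosome 4 from 186317638 to 186321395, plus strand, GRCh37), had 44 counts in untreated and 1862 in treated H820, or 7.45 and 86.5 CPM. It had 252 and 256 CPM in EBC1, 10.1 and 9.76 in H23, and 33.4 and 36.1 in H1975, so that the pairs of the other lines were near level and untreated H820 was the lowest of the 8. The H820 ratio was 3.49 (counting interval 3.11 to 4.0), and its difference from the other lines 3.50 ± 0.245 (SE, edgeR adjusted p = 6.38e-11).

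BHLHE40, a transcriptional repressor of the clock and of low oxygen, went from 39.5 to 388 CPM (3.29, edgeR adjusted p = 7.06e-12) with 233 and 8361 counts behind it. ADM, the vessel-widening peptide adrenomedullin, went from 16.4 to 137 CPM (3.04), and DDIT4, an inhibitor of mTOR complex 1 that stress also induces, from 78.6 to 635 CPM (3.01). These 4 stood apart within the list: the next was PFKFB3, which makes the activator of phosphofructokinase, at 1.70 (183 to 593 CPM). Abundant HIF targets were higher by less, among them HILPDA, a lipid droplet protein (1.40), the histone demethylase KDM3A (1.23), the prolyl hydroxylase EGLN3 (1.16), the glucose carrier SLC2A1 (1.08) and NDRG1 (1.06). Others did not pass: VEGFA, the vessel growth factor, had a ratio of 0.67, BNIP3, which marks mitochondria for removal, 0.56, ANGPTL4 0.47 and CA9, carbonic anhydrase 9, 1.10.

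RefSeq entries were found for 24 of the 30 genes, and 17 of these (70.8%) had ACGTG, the core of the element that HIF binds, on either strand in the 250 bases before the start, against 29.2% of protein-coding genes with enough counts. The list was made of known genes of this response, so its share describes the list and not the H820 ratios. Among the 384 protein-coding genes over 2-fold higher in H820 with an entry, the share was 31.5%. The 2 highest genes of the list are shown, chr4:185396591-185396840 for ANKRD37 and chr3:4979187-4979436 for BHLHE40, both on the plus strand of GRCh38.p14. Capitals mark ACGTG or its reverse complement, of which ANKRD37 had 3 and BHLHE40 4. A palindromic CACGTG counts on both strands, since its 2 matches overlap.
ANKRD37: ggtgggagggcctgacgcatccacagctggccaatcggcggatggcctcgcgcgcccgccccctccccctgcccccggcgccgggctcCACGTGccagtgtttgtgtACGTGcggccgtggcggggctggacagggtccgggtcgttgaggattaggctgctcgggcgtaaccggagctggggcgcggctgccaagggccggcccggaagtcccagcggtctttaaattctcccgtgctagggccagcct
BHLHE40: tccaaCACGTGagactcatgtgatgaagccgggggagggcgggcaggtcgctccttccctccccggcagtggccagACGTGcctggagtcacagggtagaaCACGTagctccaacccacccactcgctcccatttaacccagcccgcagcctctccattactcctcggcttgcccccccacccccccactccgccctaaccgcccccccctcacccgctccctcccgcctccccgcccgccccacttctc

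Glycolysis, which HIF also feeds, was higher by less. Of 18 genes, 3 were over 2-fold higher and none lower (median 0.62; 0.26 in EBC1, -0.01 in H1975 and -0.10 in H23), and 6 of 18 passed (3 without H23, 2 without H1975 and 14 without EBC1). They were HK2, the inducible hexokinase (136 to 492 CPM, ratio 1.85), PDK1, which keeps pyruvate out of mitochondria (1.44), GAPDH (1.13), ENO2 (0.93), ALDOA (0.80) and LDHA, lactate dehydrogenase (0.69). The last 4 of these lost their calls without H1975 (adjusted p = 0.398, 0.156, 0.529 and 0.351). In the glycogen list, 4 of 12 passed (1 without H23 and 2 without H1975), led by PPP1R3C, which targets a phosphatase to glycogen and went from 54 to 2046 counts (3.34, edgeR adjusted p = 1.3e-09). EBC1 had 57.1 and 70.5 CPM of it, H23 2.49 and 2.46, and H1975 18.4 and 21.3.

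**Figure D3:**
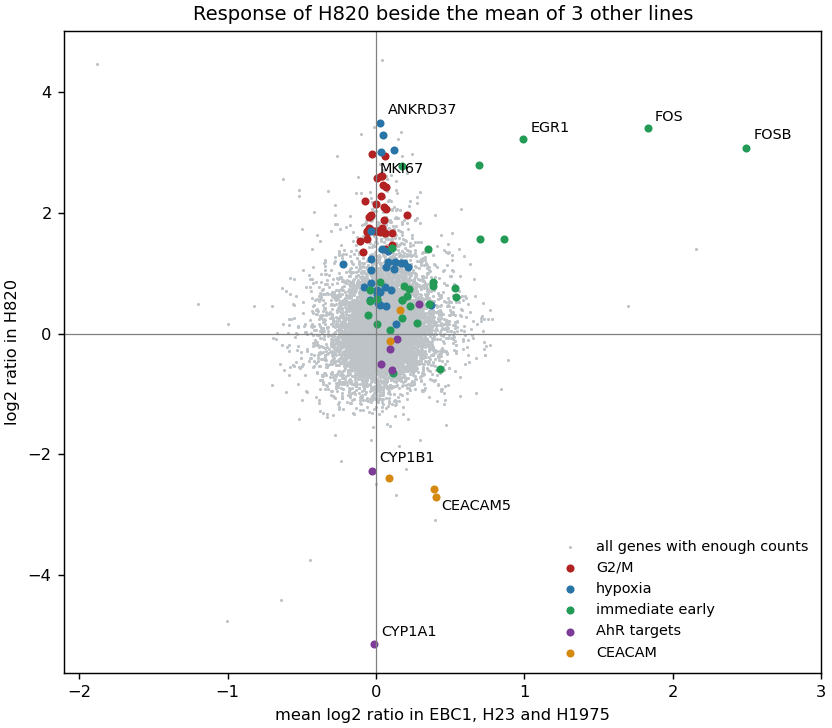
Log2 ratio of treated to untreated scaled CPM in H820 against the mean of the same ratio in EBC1, H23 and H1975, 1 point a gene, with 5 lists coloured. G2/M and hypoxia genes lie high on the vertical axis near 0 on the horizontal, FOS, FOSB and EGR1 lie to the upper right, and CYP1A1 lies lowest.

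Of 26 acute phase genes, 12 had enough counts, 3 were over 2-fold higher and none lower, and 3 of 17 tested passed. Over all genes 4.23% were over 2-fold higher and 2.63% passed higher. The list's median was 0.71 in H820, 0.14 over 9 genes in EBC1, 0.13 over 10 in H1975 and 0.21 over only 2 in H23. FGB, the fibrinogen beta chain, went from 112 to 3164 counts in H820 (19.0 to 147 CPM, ratio 2.94), while the other lines had 0 to 5 counts a library. FGA, the alpha chain, went from 10 to 252 counts (2.60) and FGG, the gamma chain, from 1 to 26. FGB passed (edgeR adjusted p = 0.00615) and lost the call without H23 (adjusted p = 1), and FGA did not pass (adjusted p = 0.237). A difference against lines at or near 0 counts has no reliable size and none is given. SERPINA3, a protease inhibitor, went from 170 to 435 CPM (1.36, edgeR adjusted p = 0.000159), and CFB, complement factor B, from 721 to 1415 CPM (0.97, adjusted p = 0.00875; 0.302 without H1975). SAA1, serum amyloid A, went from 81.5 to 148 CPM (0.86) and LCN2, lipocalin, had a ratio of 0.48, neither passing the test between lines, and CRP had at most 1 count.

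STAT3 drives acute phase genes, and 7 of 14 genes of the JAK-STAT3 list passed, but 3 without H23, 3 without H1975 and 11 without EBC1 (median 0.83 in H820, -0.03 in H1975, -0.02 in H23 and 0.46 in EBC1). SOCS3, the feedback inhibitor of the pathway, went from 24.9 to 172 CPM (2.78, edgeR adjusted p = 4.73e-09), against 22.3 and 33.4 CPM in EBC1, 28.1 and 27.6 in H23 and 46.6 and 45.9 in H1975. OSMR, a receptor chain for oncostatin M, had a ratio of 0.84 and STAT3 itself 0.74, and both passed. Of 22 NF-kB genes 4 passed (2 without H1975 and 8 without EBC1), namely the cytokine LIF (24.2 to 82.2 CPM, 1.75), the feedback enzyme TNFAIP3 (1.3), the chemokine CCL20 (1.27, adjusted p = 0.504 without H1975 and 0.0574 with DESeq2) and IL1B (1.0), while NFKBIA, the inhibitor that NF-kB induces first, had 0.09.

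Among targets of the aryl hydrocarbon receptor the CYP1 enzymes were lower. CYP1A1, a monooxygenase of polycyclic hydrocarbons and the receptor's most responsive target (ENSG00000140465.13_3, chromosome 15 from 75011883 to 75017951, minus strand, GRCh37), had 133 counts in untreated and 8 in treated H820, or 22.5 and 0.372 CPM. It had 6.72 and 7.44 CPM in EBC1, 0.642 and 0.453 in H23, and 1.88 and 2.12 in H1975. Untreated H820 was the highest of the 8 libraries and treated H820 the lowest. The ratio with the prior count was -5.13, and without it the level was 60.6-fold lower, with a counting interval of -7.16 to -4.90 on the log2 scale. The difference from the other lines was -5.96 ± 0.528 (SE, edgeR adjusted p = 4.81e-09).

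The 250 bases before the CYP1A1 start (chr15:74725529-74725778, minus strand, GRCh38.p14, RefSeq) hold 1 GCGTG, the core that the receptor and its partner bind, shown in capitals 57 bases before the start. The motif was present in 3 of the 6 target genes with an entry, against 53.4% of protein-coding genes with enough counts, so its presence in this window does not set the list apart.
CYP1A1: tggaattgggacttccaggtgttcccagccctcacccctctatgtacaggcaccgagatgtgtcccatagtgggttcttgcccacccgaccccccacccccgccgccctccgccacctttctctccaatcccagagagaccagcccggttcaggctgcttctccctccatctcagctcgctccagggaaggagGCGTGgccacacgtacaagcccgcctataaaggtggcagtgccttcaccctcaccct

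CYP1B1, the related enzyme that also turns over oestrogens, went from 3948 to 2973 counts in H820 despite the deeper treated library, or from 669 to 138 CPM (-2.27, edgeR adjusted p = 1.3e-09). It had 48.8 and 50.7 CPM in EBC1, 412 and 392 in H23, and 435 and 418 in H1975. AC016689.1, annotated as antisense to another gene, begins 466 bases beyond the 3′ end of CYP1B1 on the same strand and went from 52 to 17 counts (-3.09, edgeR adjusted p = 0.000331). The other targets differed less: AHRR, the receptor's repressor, had a ratio of -0.60, NQO1, a quinone reductase, -0.50, TIPARP, a feedback enzyme, -0.08 and TNFAIP2 0.49, and none of these passed. AHRR and NQO1 did so without EBC1 (adjusted p = 0.0129 and 0.0119) and with library size alone (0.0144 and 0.0023), which gave 4 lower calls in the list in both settings. Over the 7 of 11 targets with enough counts, 2 were over 2-fold lower and none higher (median -0.50; 0.19 in EBC1, 0.04 in H1975 and -0.02 in H23), and 2 of 10 tested passed, both lower. Over all genes 0.873% were over 2-fold lower and 0.368% passed lower. None of the 6 genes of the receptor's machinery passed (AHR 0.26 and its partner ARNT 0.17 among them).

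NQO1 also belongs to the targets of NRF2, the sensor of oxidants, and there 3 of 18 genes were over 2-fold lower and none higher (median -0.44; 0.16 in EBC1, -0.10 in H23 and -0.05 in H1975). SLC7A11, the cystine carrier, went from 169 to 78.0 CPM (-1.11, edgeR adjusted p = 0.0011), and SRXN1, which repairs peroxiredoxins and shares reads with an overlapping gene model, from 69.4 to 32.0 CPM (-1.11, adjusted p = 0.00101). AKR1C2, with 10 and 3 counts, was the third of 20 tested to pass. Over all genes 0.873% were over 2-fold lower and 0.368% passed lower. The third gene over 2-fold lower, AKR1C1, had a ratio of -1.31 and did not pass (adjusted p = 0.0175 without EBC1 and 0.043 without H23). Without EBC1, 8 genes of the list passed lower, and with library size alone 9.

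The CEACAM genes code for cell surface adhesion proteins of epithelia, of which CEACAM5 is the carcinoembryonic antigen measured in blood as a tumour marker. CEACAM5 (ENSG00000105388.15_3, chromosome 19 from 42212504 to 42233718, plus strand, GRCh37) had 1476 counts in untreated and 896 in treated H820, or 250 and 41.6 CPM, a ratio of -2.58 (counting interval -2.71 to -2.47). CEACAM7 went from 345 to 188 counts (58.4 to 8.73 CPM, -2.70), and CEACAM6 from 63 to 39 counts (10.7 to 1.81 CPM, -2.39). The 3 genes lie side by side on chromosome 19, with CEACAM7 on the minus strand and thus counted apart, while AC011513.3 overlaps CEACAM5 and CEACAM6 and shares their reads. The other lines had 0 to 6 counts of each a library. CEACAM5 and CEACAM7 passed (edgeR adjusted p = 0.00929 and 0.00629) and lost the call without H1975 (0.335 and 0.548), and CEACAM6 did not pass (0.419). Members with another pattern were CEACAM1, with 30.7 and 40.3 CPM (0.39), and CEACAM19, with 611 and 2046 counts (-0.12). Of the 16 listed genes, 5 had enough counts and 3 of these were over 2-fold lower, with a median of -2.39, beside 0.873% of all genes over 2-fold lower.

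MUC5AC, a secreted mucin, went from 46.4 to 9.57 CPM in H820 (-2.24, edgeR adjusted p = 0.164) and had at most 0.141 CPM elsewhere. CDX2, an intestinal factor, had 12.2 and 6.32 CPM, while the intestinal list as a whole had 69.3 and 69.9 CPM. PDK4, which spares glucose for fat as fuel, went from 82 to 42 counts (13.9 to 1.95 CPM, -2.67, edgeR adjusted p = 3.31e-07) and CPT1A, which carries fatty acids into mitochondria, from 68.4 to 30.3 CPM (-1.17, adjusted p = 0.000276). LFNG, which modifies Notch receptors, went from 47.9 to 21.1 CPM (-1.17, adjusted p = 0.000138). In the cholesterol list 7 of 20 genes passed (4 without H23, 4 without H1975 and 11 without EBC1), all higher, among them the desaturase SCD (125 to 512 CPM, 2.03), STARD4 (1.75) and the feedback protein INSIG1 (1.47). Transcripts of the mitochondrial genome were lower in both lines with a deep treated library, with a median over 13 genes of -0.68 in H820 and -0.75 in EBC1, against -0.15 in H23 and 0.17 in H1975. MT-ND2 and MT-CYB were the 2 that passed in H820, and MT-ND2 did not pass with DESeq2 (adjusted p = 0.367). The number that passed ranged from 0 with DESeq2 and 1 without H1975 to 5 without H23 and 10 both without EBC1 and with library size alone.

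Immediate early genes had higher ratios than genes at large in all 4 lines. Of 37, 31 had enough counts, 9 were over 2-fold higher in H820 and none lower (median 0.72), and the medians of 0.33 in EBC1, 0.27 in H23 and 0.19 in H1975 were also above those of all genes. FOS had 14.6 and 157 CPM in H820, 18 and 81 in H1975, 45.5 and 209 in H23 and 54.0 and 120 in EBC1. EGR1, a zinc finger factor of the same speed, had 25.1 and 235 CPM in H820, 72.2 and 175 in H1975, 182 and 403 in H23 and 117 and 172 in EBC1. FOSB had 12.9 and 111 CPM in H820, 3.62 and 26.2 in H1975, 25.9 and 224 in H23 and 51.9 and 159 in EBC1. The H820 ratio was 3.41 for FOS, 3.22 for EGR1 and 3.08 for FOSB, and treated H820 was within the range of the other treated libraries for all 3. The difference in response passed for EGR1 (2.23 ± 0.238, SE, edgeR adjusted p = 2.45e-07) and for FOS (1.56 ± 0.3, adjusted p = 0.00151; 0.217 with DESeq2) but not for FOSB (0.58 ± 0.364, adjusted p = 0.521), whose ratio was 1.61 to 3.10 in the other lines. Of the 37 genes, 8 passed higher (14 without EBC1), among them ZFP36, which speeds RNA decay (1.42), JUNB (1.39) and the YAP targets CTGF (2.80) and CYR61 (1.58). DUSP6, a phosphatase of ERK kinases, passed lower (-0.59 in H820 and 0.37 to 0.49 elsewhere).

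Few of the H820 genes were over 2-fold in another line, where few genes were so at all. Of the 629 higher genes, 7 were also over 2-fold higher in EBC1 (1.48% of those with enough counts there, and 3.76% of the EBC1 genes), 6 in H23 (1.27% and 27.3%) and 8 in H1975 (1.6% and 40%), with FOS and FOSB among them each time. Over all genes with enough counts the higher shares were 1.33% in EBC1, 0.142% in H23 and 0.133% in H1975, so the EBC1 overlap was near that line's share. Of the 130 lower genes, 3 were also lower in EBC1, all of the mitochondrial genome (MT-ATP6, MT-ATP8 and MT-TI), and 0 in H23 and in H1975. Lower genes made up 0.115% of all genes in EBC1, 0.0906% in H23 and 0.0266% in H1975, so the 0 in H23 and H1975 is near their shares. The median ratio of the 629 genes was 0.18 in EBC1, 0.00 in H23 and 0.04 in H1975.

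**Figure D4:**
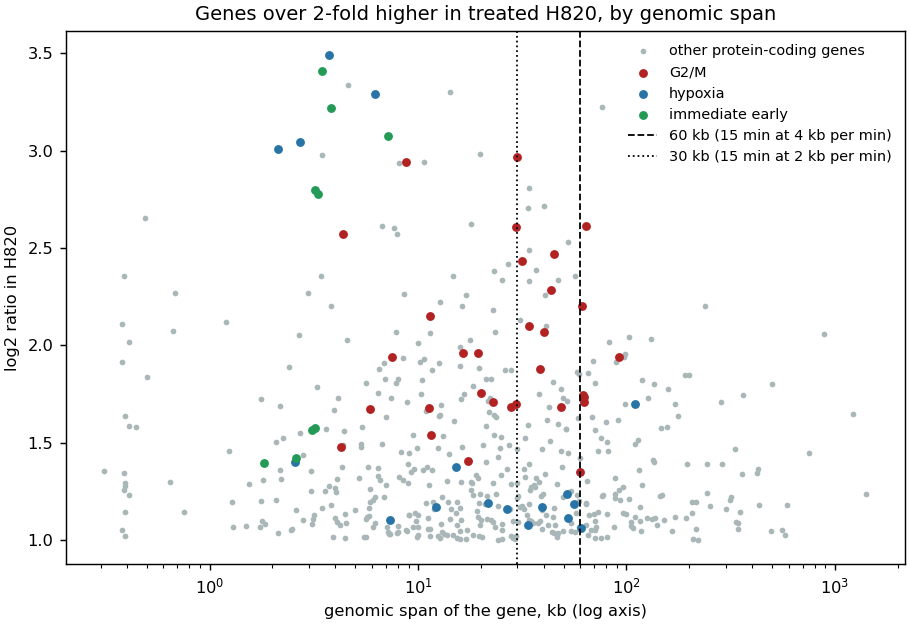
Log2 ratio in H820 against genomic span in kb (log axis) for the 534 protein-coding genes over 2-fold higher, with vertical lines at 60 and 30 kb, the length read in 15 min at 4 and 2 kb per min. The immediate early genes lie at spans under 10 kb, and 8 G2/M genes lie beyond the 60 kb line.

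The labelled time sets bounds on what new synthesis or decay could give. RNA polymerase II at an assumed 4 kb per min reads 60 kb in 15 min, so a transcript with a longer span could not be finished from a start made at the time of treatment, although counts from its first exons could be gained. The span used here runs from the first to the last annotated exon over all transcripts of a gene. A shorter transcript of the same gene may therefore lie within the bound. Of 534 protein-coding genes over 2-fold higher, 124 (23.2%) had a longer span, against 30% of the 12864 protein-coding genes with enough counts, and at 2 kb per min the shares were 41.0% and 50.8%. Among the 32 G2/M genes 8 were longer, beside the 30% of protein-coding genes above, so long span does not set the list apart. CENPE spans 92.6 kb, KNL1 70.3 kb, ANLN 64.0 kb, and TPX2, ASPM, KIF11, CENPF and BUB1B 60.1 to 62.6 kb. PFKFB3 at 110 kb and NDRG1 at 60.4 kb were the 2 hypoxia genes over 2-fold higher beyond the bound. None of the 9 immediate early genes over 2-fold higher was beyond it, in a list of short genes with a median span of 4.19 kb.

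For a lower value the bound is decay. If synthesis stopped at once, a level that falls by a given log2 ratio in 15 min needs a half-life of 15 min divided by the size of that ratio. CYP1A1 would need 2.92 min, CEACAM7 5.55 min, PDK4 5.62 min, CEACAM5 5.82 min, CYP1B1 6.6 min and SLC7A11 13.5 min. These values use ratios with the prior count added, which makes each fall smaller. Plain ratios, such as -5.92 for CYP1A1 and -2.83 for PDK4, would need shorter half-lives. Of the 71 protein-coding genes over 2-fold lower, 14 would need 10 min or less, while the 2-fold minimum itself sets an upper bound of 15 min. Half-lives were not measured here.

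**Figure D5:**
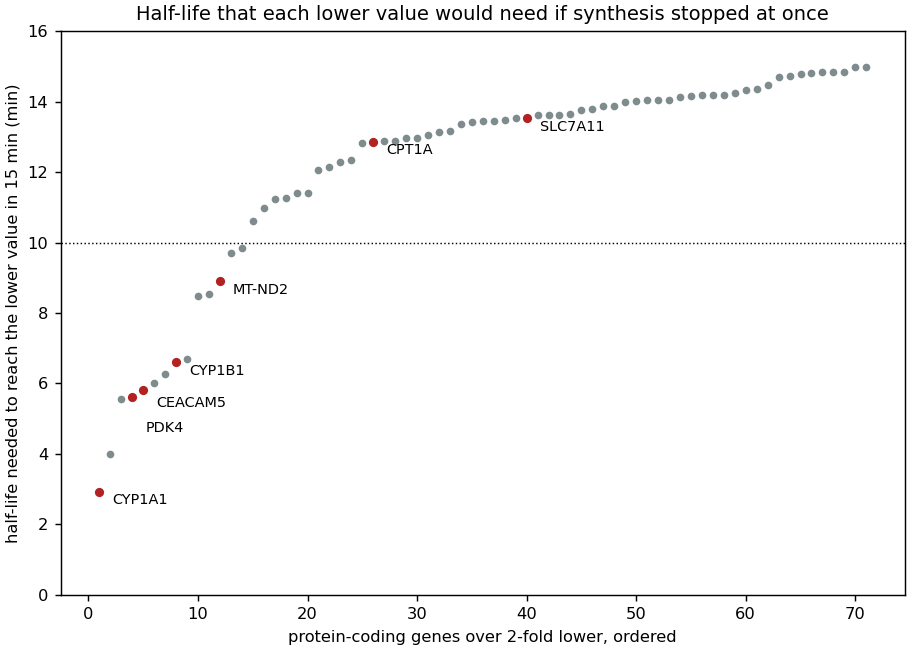
Half-life in min that each of the 71 protein-coding genes over 2-fold lower in treated H820 would need to reach its value in 15 min, ordered from shortest to longest, with a dotted line at 10 min. CYP1A1 is lowest at 2.92 min, and CYP1B1, PDK4 and CEACAM5 lie between 5.62 and 6.6 min.

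CD274, the gene for PD-L1, had 24.4 and 45.3 CPM in H820, 12.7 and 12.8 in EBC1, at most 0.201 in H23, and 9.30 and 11.8 in H1975. Its H820 ratio was 0.89 (counting interval 0.64 to 1.16), and the difference from the other lines did not pass (0.71 ± 0.281, SE, edgeR adjusted p = 0.204). PDCD1, the gene for the receptor PD-1, had 1 and 4 counts in H820, too few for a ratio. Of 10 checkpoint genes with enough counts only HHLA2 was over 2-fold higher (61.3 to 169 CPM), beside 4.23% of all genes. The other lines had 0 to 5 counts of it a library, and its difference did not pass (edgeR adjusted p = 0.896). CD47, the do-not-eat-me signal, passed (0.65, edgeR adjusted p = 0.0372) but not without H23, without H1975, at a minimum count of 50 or with library size alone. Interferon-stimulated genes had a median of -0.06 in H820, with 0 of 19 over 2-fold either way, beside 4.23% higher and 0.873% lower over all genes. IFIT1, below the count minimum, was the 1 of 22 tested that passed, lower (0 without H1975). ISG15 had -0.11. MHC class I genes had a median of 0.65 and 1 of 12 passed, the proteasome subunit PSMB8, while in MHC class II CD74 (1.28) and HLA-DRA (1.32) were the 2 of 10 that passed, beside 2.63% of all genes tested. All 3 of these lost their calls without H1975 (adjusted p = 0.103, 0.0579 and 0.243), while 8 class I genes passed without EBC1.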

How the data were processed

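RNA was sequenced from 8 libraries, 1 untreated and 1 PD-L1s library of each of 4 lines, with a strand-preserving total RNA kit that removes ribosomal RNA, per the labels' protocols. Each deposited file gives unnormalized counts of read pairs for every gene. The authors used STAR 2.7.3a, Subread 2.0.0 and GRCh37, per the submitters' processing notes. The counting took reverse-stranded primary alignments with a mapping quality of at least 1 over a gene's exons, and gave a pair to each gene it overlaps, per the file headers, so overlapping genes share reads. The files' exonic length column was not used in a test.

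Counts were scaled with TMM factors over all 8 libraries (edgeR 4.0.16, R 4.3.3). Log2 ratios of CPM used a prior count of 5, for genes with 50 or more counts in at least 1 H820 library (48 genes had a highest count of exactly 50 and 48 of 49). Counting intervals are exact conditional binomial (Clopper-Pearson, 95%) on the plain ratio and cover counting error only. H820's response minus the mean of the other 3 lines was tested with edgeR's two-sided quasi-likelihood F test (line, treatment and treatment by H820, 2 residual degrees of freedom, filter at a minimum count of 10, Benjamini-Hochberg over 24185 genes, threshold 0.05). The SE printed with a difference is its size divided by the square root of the F statistic, and is not an error that edgeR reports. H820 enters as a single pair, and p-values measure only the spread between these libraries, since no label says they came from separate cultures. DESeq2 1.42.0 was an alternative.

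The members and the 34 gene lists (587 of 588 symbols matched) were chosen with earlier results of these data known. Named genes were the markers, CD274, PDCD1, FOS, FOSB and EGR1, the 10 highest and 10 lowest coding genes, up to 6 members of each programme list by size, up to 3 of each other list by size, and up to 8 called genes a direction. Further members, including those named because they did not pass, were chosen after their values were seen. Promoter sequences are RefSeq's, GRCh38.p14, and gene positions are the files', GRCh37.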

Additional observations from a re-analysis of the deposited data

Results flagged for a closer look

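The response of H820 differed from the mean response of the other 3 lines in 635 genes that were higher and 89 that were lower by the edgeR test of that difference, and the values below are its size on the log2 scale. In the cell cycle it was 3.01 for MKI67, 2.58 for ANLN and 2.57 for TOP2A. Among hypoxia genes it was 3.50 for ANKRD37, 3.25 for BHLHE40, 2.93 for ADM and 2.98 for DDIT4, and it was 3.16 for PPP1R3C of glycogen. Among immediate early genes it was 1.56 for FOS and 2.23 for EGR1. It was 3.24 for AC104794.5, which shares reads with RRM2. DACT1, an inhibitor of Wnt signalling, had 0 counts in untreated and 53 in treated H820. That is 4.85-fold higher if the untreated library is set at a floor of 3 counts. The lower end of the counting interval was 1.93 on the log2 scale, a smaller fold. The fitted difference of 8.56 for DACT1 depends on the prior count.

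Lower in H820 were CYP1A1 (-5.96) and CYP1B1 (-2.24), PDK4 (-2.99), CPT1A (-1.22), LFNG (-1.61), the signalling gene PLEKHG4B (-1.77, adjusted p = 0.0512 without H23) and AC016689.1 downstream of CYP1B1 (-3.56). The processed pseudogene RP11-316P21.1 (-4.01) went from 428 to 68 counts and may share reads with a near-identical copy. CEACAM5 (-6.15), CEACAM7 (-5.17) and HBA2 (-3.66) have few or 0 counts in other lines, so the fitted sizes are not folds, and these 3 lost their calls without H1975 (adjusted p = 0.335, 0.548 and 0.103).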

How the results depend on the processing

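With library size alone, over-2-fold genes in H820 numbered 387 higher and 324 lower, the median of all genes was -0.0916, and the test of the difference called 575 lower. With 50 counts required in the untreated library, 268 were higher and 80 lower, and list medians minus the median of all genes were 0.697 for G1/S, 0.996 for histones, 0.817 for hypoxia and -0.681 for aryl hydrocarbon targets. Lower genes were 323 at a minimum of 20 counts, 58 at 100 counts and 71 among protein-coding genes. At 100 counts that median was -0.695 for aryl hydrocarbon targets and -1.50 for CEACAM, and -2.66 for CEACAM with a prior count of 1. The test called 151 lower with DESeq2 size factors, 25 with DESeq2 and 192 with protein-coding genes only. It called 287 higher without H23, 303 without H1975, and 1552 higher and 536 lower without EBC1. The share of higher genes with a long span was 41.0% at 2 kb per min. All 32 G2/M genes passed under each of the 9 alternative settings of the test. The hypoxia list had 13 to 28 calls over them, the histones 14 to 25, G1/S 4 to 18, and CEACAM5 and CEACAM7 lost theirs without H1975. Among the 128 named genes, 21 lost a call without H1975, 17 without H23, 12 at a minimum count of 50, 7 with DESeq2 and 3 with library size alone, and no direction of a called ratio was reversed in any setting run. The cause was not tested. Low depth of the untreated library limits low genes most. Of the 629 higher genes, 361 had under 50 counts there, beside 50 of the 130 lower genes and 3587 of all 14883. Such genes met the minimum count only through the deeper treated library.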

Other observations

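Clock genes were outside the lists and were noticed after their values were seen, so they are given without a test. NR1D1, a repressor of the circadian loop, went from 42 to 939 counts in H820 (7.11 to 43.6 CPM, log2 ratio 2.57), against 0.14 in EBC1, -0.11 in H23 and 0.19 in H1975. PER1 had a ratio of 1.99, CIART 2.03 and PER2 1.12, all on the repressing side of the loop, while CRY1 had -0.02 and PER3 0.08. The activators ARNTL and CLOCK had -0.16 and -0.03.

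Further values outside the lists were likewise picked after being seen. ARRDC3, an arrestin-like adaptor, went from 76.0 to 391 CPM (2.36), SGK1, a kinase of salt and glucocorticoid signalling, from 243 to 569 CPM (1.23), and HMGB2, a chromatin protein of dividing cells, from 68 to 1292 counts (2.35). The membrane proteins IFITM3 and IFITM1 had ratios of 1.81 and 1.72, although the interferon list had a median of -0.06. The matrix genes FN1 and TNC had 1.52 and 1.70. FKBP5, a glucocorticoid target, had 0.09.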
